A study of Mus musculus with 8 samples.

Results

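Methionine is both a protein building block and the source of nearly all methyl groups used in the liver. It is activated to S-adenosylmethionine (SAM), whose methyl group is passed to glycine, phosphatidylethanolamine, nicotinamide and many other acceptors, leaving S-adenosylhomocysteine. Homocysteine released from that product is either methylated back to methionine, in liver largely with betaine made from choline, or carried by transsulfuration to cysteine. The set described here holds 9 genes of this chemistry, most of them known for high expression in hepatocytes: Mat1a, Gnmt, Ahcy, Bhmt, Chdh, Pemt, Cbs, Cth and Nnmt. The genes were taken by name, through the transcript accession of each array probe, and all 9 were found, of 23911 named genes and 42982 features tested in all.

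RNA came from livers of male recombinant congenic mice on the genetic background of NZO, the New Zealand Obese mouse, in which many loci add up to obesity and fatty liver. The genotypes differed in a segment of 5.3 Mbp on chromosome 18 and are labelled Ltg/NZO.5.3N/B (NB, arrays 2, 3, 5 and 8) and Ltg/NZO.5.3N/N (NN, arrays 1, 4, 6 and 7), with C57BL/6J as the other parent strain in the strain label. Both groups ate a high fat diet (45% fat) until week 5, and the livers are described as taken at 5 weeks of age, so no group without that diet or of the pure parent strains is part of the comparison. RNA with an integrity number above 8 was hybridised to 1-colour Agilent arrays, 1 array per sample. None of the 9 genes lies on chromosome 18, according to the RefSeq gene table.

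Signals are given as log2 of the array software's processed signal minus the 75th percentile of the same array, so a value of 5 lies 5 doublings above that percentile. The 75th percentile lay between 445 and 584.4 intensity units, the software marked 74.4% to 79.6% of an array's probes as well above background, and no spot was saturated. With 4 arrays in each genotype, their number limits the precision of the values. The 8 hepatocyte markers examined (such as Alb and Apoa1) were all measured, and their summed level lay between 10.94 and 11.10 on NB arrays and between 10.95 and 11.14 on NN arrays. Array NB 8 correlated least with the others across probes (mean Pearson r 0.990, against 0.993 for each of the other 7), and the results were also computed without each array in turn. Since whole liver was measured, fewer cells of a type and less RNA per cell cannot be told apart. Separate animals per array are not stated outright in the labels, and the p-values cover the spread between samples only.

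What each signal can and cannot separate follows from the probe. The array carried 11 probes for the 9 genes, and 2 genes, Chdh and Nnmt, had 2 probes each, with the brighter one used. Ahcy needs a caution: its probe shares 25 bases in a row with the brightest probe of Gm4737, a chromosome 16 gene that carries a synonym in common with Ahcy in the RefSeq table. Both stretches are printed 5′ to 3′ with the shared bases in capitals, Ahcy from base 19 to 48 of its probe and Gm4737 from base 1 to 30 of its probe.
Ahcy (NM_016661): atggtTCCTGTCACAAGCCCAGGTCACAAA
Gm4737 (NM_001304528): TCCTGTCACAAGCCCAGGTCACAAAcagat
The signal named Ahcy below may therefore include RNA of Gm4737, and the array does not separate the transcripts at these bases.

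The Nnmt probes and the Gnmt probe are shown because the readings of these genes are compared within the gene below, between different probes for Nnmt and between repeated spots for Gnmt. The 30 bases given for the brighter Nnmt probe are its first 30, and the others are whole.
Nnmt, brighter probe (NM_010924): gcagatctgaatgacatcctgtgatcccta
Nnmt, dimmer probe (XM_006510077): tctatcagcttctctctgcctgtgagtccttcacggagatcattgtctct
Gnmt (NM_010321): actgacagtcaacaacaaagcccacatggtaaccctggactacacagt
The Nnmt probes were designed to different transcript records, so they read the gene through different sequences.

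The comparison of NB with NN asked whether these genes differ between livers with different alleles of the chromosome 18 segment. No member passed the test: with limma across all 42982 features, 0 of 9 had a Benjamini-Hochberg adjusted p under 0.05, and each adjusted p was 1. Over all features, 3 passed (0.00698%). All 3 were higher in NB (0.00698%), and none was lower (0.0%). At an unadjusted p under 0.05, 1 member, Gnmt, passed in limma and was lower in NB, against 728 of all features (1.69%), of which 0.738% of features were higher in NB and 0.956% lower. For no member did the 4 NB arrays all lie on one side of the 4 NN arrays, a separation seen in 497 of all features (1.16%), with NB higher in 0.426% and lower in 0.731%. The fold change was below 0 for 7 of the 9 members, with a median of −0.14, while 54.1% of all features were below 0 with a median of −0.01.

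**Figure D1:**
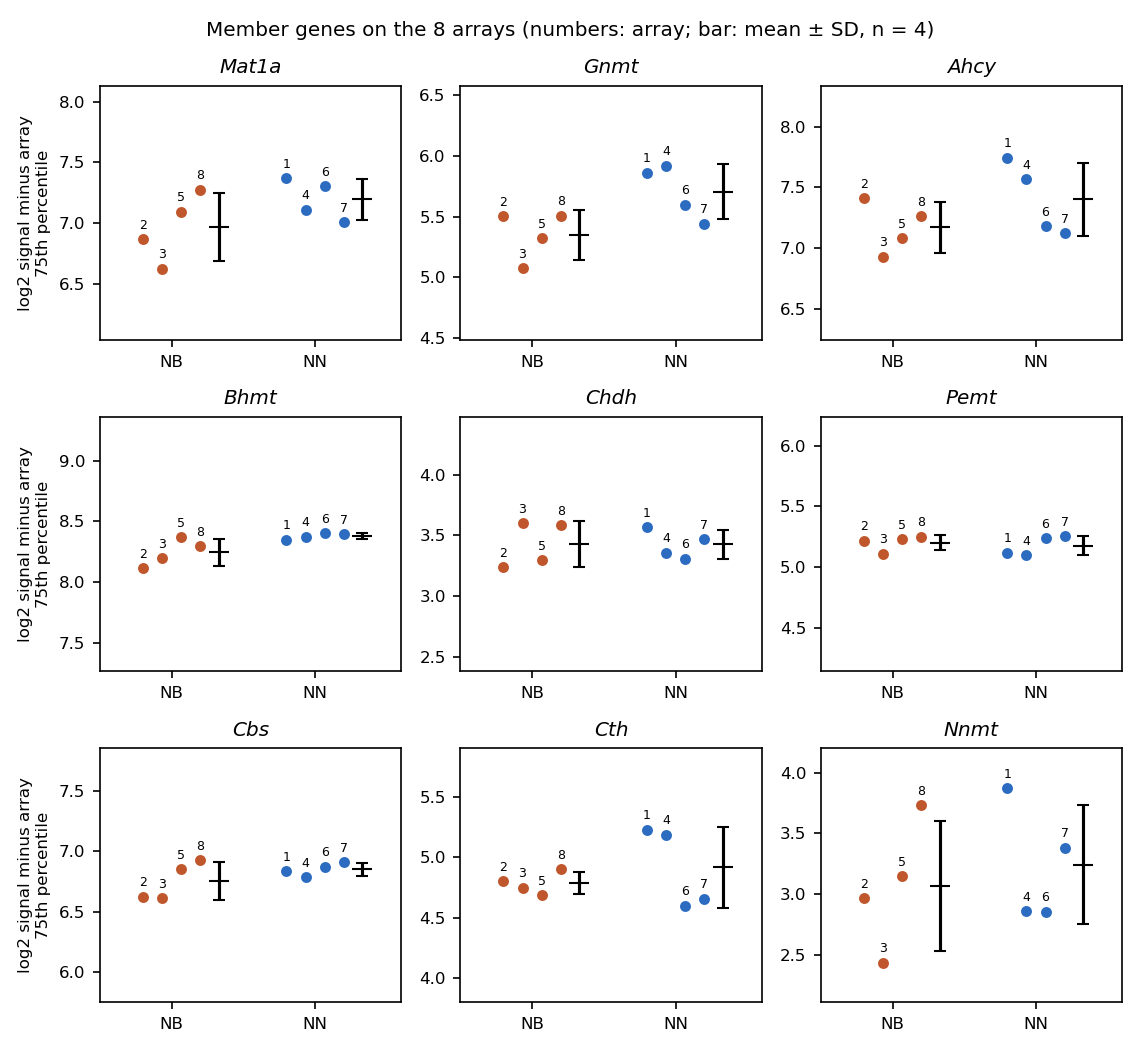
Log2 signal minus the array's 75th percentile (vertical axis, the same span in every panel, centred on the gene's mean) for each member gene on the NB arrays (left) and NN arrays (right), numbered by array, with the mean ± SD (n = 4). The genotypes overlap for every gene. Bhmt and Pemt lie in narrow bands, and Nnmt is the most scattered.

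Mat1a encodes the liver form of methionine adenosyltransferase, which makes SAM from methionine and ATP. Its log2 signal was 6.87, 6.62, 7.09 and 7.27 on NB arrays 2, 3, 5 and 8, against 7.37, 7.11, 7.30 and 7.00 on NN arrays 1, 4, 6 and 7. Arrays NB 2 and NB 3 were the lowest, while NB 5 and NB 8 lay among the NN values. Mean levels were 6.96 ± 0.28 in NB and 7.20 ± 0.17 in NN (SD, n = 4 each). The log2 fold change of −0.23 (SE 0.150) corresponds to 0.851-fold in NB, and the 95% interval ran from 0.672 to 1.08-fold.

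Gnmt, glycine N-methyltransferase, spends SAM on making sarcosine from glycine and is regarded as the liver's buffer against excess SAM. It read 5.50, 5.07, 5.32 and 5.51 on NB arrays 2, 3, 5 and 8, against 5.86, 5.92, 5.60 and 5.44 on NN arrays 1, 4, 6 and 7. The highest 3 values were all NN and the lowest 2 were NB, but NN 7 lay below NB 2 and NB 8. Means were 5.35 ± 0.21 in NB and 5.70 ± 0.23 in NN (SD, n = 4 each), a log2 fold change of −0.35 (SE 0.141). Expressed linearly this is 0.782-fold in NB with a 95% interval of 0.627 to 0.976, an unadjusted p of 0.0335 and an adjusted p of 1 in limma. The Gnmt probe was printed on 5 spots of each array, and the SD between those spots was 0.0265 to 0.0688, which covers spot noise only and not that of RNA or labelling.

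Pemt methylates phosphatidylethanolamine to phosphatidylcholine with SAM, the liver's own route to choline. Its readings were 5.22, 5.11, 5.23 and 5.25 on NB arrays 2, 3, 5 and 8, against 5.12, 5.10, 5.24 and 5.25 on NN arrays 1, 4, 6 and 7. All 8 arrays were close together, with no order by genotype. The fold was 1.02 in NB with a 95% interval of 0.904 to 1.14 (log2 fold change 0.02, SE 0.0748), so a change of more than 1.14-fold in either direction lies outside the interval.

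Nnmt methylates nicotinamide with SAM and so links methyl use with NAD metabolism. It gave 2.96, 2.43, 3.14 and 3.73 on NB arrays 2, 3, 5 and 8, against 3.87, 2.86, 2.85 and 3.38 on NN arrays 1, 4, 6 and 7. High and low arrays occurred in both genotypes: NN 1 and NB 8 were the highest, and NB 3 was the lowest. Means were 3.07 ± 0.54 in NB and 3.24 ± 0.49 in NN (SD, n = 4 each). The interval of the fold, 0.546 to 1.44 around 0.887 (log2 fold change −0.17, SE 0.308), is the widest among the members, and the sign turned without NB 3 (0.04) or without NN 1 (0.04).

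The dimmer Nnmt probe printed above gave −0.14, −0.33, 0.22 and 0.82 on the NB arrays, against 0.88, −0.07, 0.05 and 0.45 on the NN arrays in the same order. It placed NN 1 and NB 8 at the top and NB 3 at the bottom, as the brighter probe did. Its log2 fold change was −0.19 (SE 0.283). Deviations from the genotype means correlated between the probes at r = 0.98 over the 8 arrays, which share the RNA and the scaling of each array.

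Ahcy, adenosylhomocysteine hydrolase, removes the product that every SAM-dependent methylation leaves behind. Its probe read 7.41, 6.93, 7.08 and 7.26 on NB arrays 2, 3, 5 and 8, against 7.74, 7.57, 7.18 and 7.12 on NN arrays 1, 4, 6 and 7. Arrays NN 1 and NN 4 stood highest, followed by NB 2, and the remaining NN arrays lay among the NB values. Means were 7.17 ± 0.21 in NB and 7.40 ± 0.30 in NN (SD, n = 4 each). The log2 fold change was −0.23 (SE 0.165), or 0.851-fold in NB, with a 95% interval of −0.61 to 0.14 on the log2 scale. The 3 Gm4737 probes, including the one with the shared bases, read log2 fold changes of −0.28 (SE 0.145), −0.30 (SE 0.210) and −0.34 (SE 0.213), none of which passed the test (adjusted p = 1 in limma with every probe tested separately). The dimmest of them, which has no run of 16 bases in common with the Ahcy probe, read 1.75, 1.24, 1.32 and 1.68 on the NB arrays, against 2.27, 2.08, 1.64 and 1.34 on the NN arrays. It too was highest on NN 1, NN 4 and NB 2. Probes were compared only with other probes and not with transcripts, so whether this probe also reads Ahcy RNA was not tested.

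Bhmt transfers a methyl group from betaine to homocysteine and so regenerates methionine. The signal was 8.11, 8.20, 8.37 and 8.30 on NB arrays 2, 3, 5 and 8, against 8.35, 8.37, 8.40 and 8.39 on NN arrays 1, 4, 6 and 7. The NN arrays formed a tight group, and 3 of the 4 NB arrays lay below it, with NB 5 inside. Means were 8.24 ± 0.11 in NB and 8.38 ± 0.02 in NN (SD, n = 4 each), and the fold was 0.910 in NB with a 95% interval of 0.805 to 1.03 (log2 fold change −0.14, SE 0.0778). Bhmt2, a paralog that uses S-methylmethionine as methyl donor, had a log2 fold change of −0.03 (SE 0.0736) on its own probe.

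Chdh, the mitochondrial choline dehydrogenase, starts the conversion of choline to betaine that feeds Bhmt. Values were 3.24, 3.60, 3.29 and 3.58 on NB arrays 2, 3, 5 and 8, against 3.57, 3.36, 3.31 and 3.47 on NN arrays 1, 4, 6 and 7. NB arrays were both the highest and the lowest, so the NN values lay within them. The fold was 1.00 in NB with a 95% interval of 0.841 to 1.19 (log2 fold change 0.003, SE 0.111), and its sign has no meaning at this size, turning under 6 of the alternative settings. A second Chdh probe, designed to another transcript, gave a log2 fold change of 0.11 (SE 0.0895), and its deviations correlated with those of the probe used at r = 0.45 over the 8 arrays, well under the 0.98 of the Nnmt probes.

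Cbs, cystathionine beta-synthase, joins homocysteine with serine and commits it to cysteine. It read 6.63, 6.61, 6.85 and 6.92 on NB arrays 2, 3, 5 and 8, against 6.83, 6.79, 6.87 and 6.91 on NN arrays 1, 4, 6 and 7. NB 2 and NB 3 were the lowest, and NB 8 was the highest of all. The fold was 0.935 in NB with a 95% interval of 0.808 to 1.08 (log2 fold change −0.10, SE 0.0925).

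Cth, cystathionine gamma-lyase, splits cystathionine to release cysteine. Its signal was 4.81, 4.75, 4.69 and 4.90 on NB arrays 2, 3, 5 and 8, against 5.23, 5.19, 4.60 and 4.66 on NN arrays 1, 4, 6 and 7. The NN arrays split into a high pair, NN 1 and NN 4, and a low pair, NN 6 and NN 7, with all NB arrays between them. Means were 4.79 ± 0.09 in NB and 4.92 ± 0.33 in NN (SD, n = 4 each). The fold was 0.912 in NB with a 95% interval of 0.713 to 1.17 (log2 fold change −0.13, SE 0.156).

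**Figure D2:**
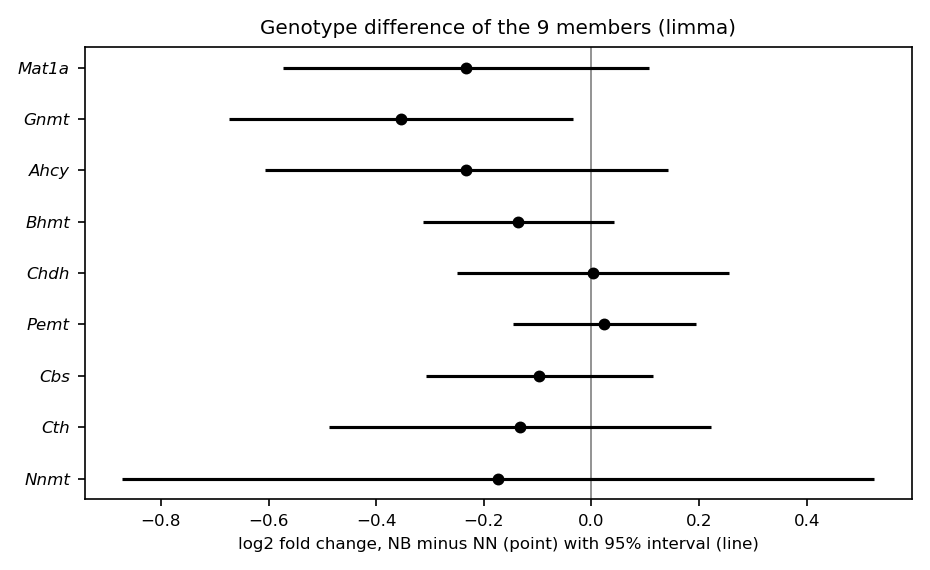
Log2 fold change of each member, NB minus NN (horizontal axis), as a point with its 95% interval from limma. The interval of Gnmt, −0.67 to −0.03, is the only one without 0, unadjusted for the number of features tested. Those of Pemt and Bhmt are the narrowest and that of Nnmt the widest.

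The members differed widely in how much they varied among livers of the same genotype. The pooled within-genotype SD of Nnmt was 0.51 on the log2 scale, and 95.9% of all features varied less. Its highest and lowest arrays differed 2.72-fold. Ahcy (SD 0.26) and Cth (0.25) came next, ahead of Mat1a (0.23) and Gnmt (0.22), with 1.55 to 1.80-fold between their extreme arrays. Gnmt still varied more than 64.8% of features and Cth more than 71.9%.

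Chdh (SD 0.16) and Cbs (0.12) varied less than these. Bhmt and Pemt were among the steadiest transcripts on the array: their SDs of 0.08 and 0.07 exceeded those of only 9.40% and 6.30% of features. Features were ranked together whatever their signal level, and Bhmt had the highest signal of the members. The extreme arrays differed 1.22-fold for Bhmt and 1.11-fold for Pemt. The betaine-using and the phosphatidylcholine-making enzymes thus gave nearly the same reading on every array, while the methyltransferase for nicotinamide did not.

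Arrays also differed in how the members lay as a set. NN 1 held 8 of 9 members above their mean over the 8 arrays and was the highest array for 4 of them. NB 3 held 1 of 9 above the mean, Chdh, and was the lowest array for 5. NB 2 held 2 above the mean and NB 5 held 4, against 6 on NB 8, and NN 4, NN 6 and NN 7 held 5 each.

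**Figure D3:**
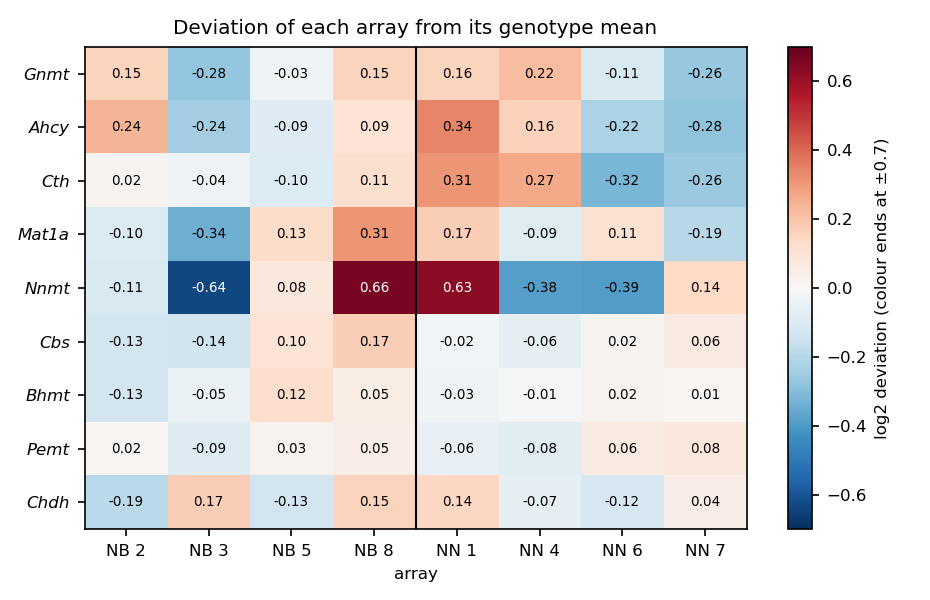
Deviation of each array from the mean of its genotype, log2 scale, for the 9 members (vertical axis) on the NB arrays (left of the line) and NN arrays (right of the line). Red is above and blue below the genotype mean. Gnmt, Ahcy and Cth are all above their means on NB 2, NB 8, NN 1 and NN 4 and all below on the other 4 arrays, while Bhmt and Pemt are pale throughout.

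Within genotypes, Gnmt, Ahcy and Cth were high on the same arrays. Deviations from the genotype means correlated at r = 0.92 for Gnmt with Ahcy, 0.85 for Ahcy with Cth and 0.76 for Gnmt with Cth over the 8 arrays. Gnmt and Ahcy correlated at 0.94 among the 4 NB arrays and 0.92 among the 4 NN arrays, and between 0.89 and 0.95 when each array was left out. For Ahcy with Cth the values were 0.58 among NB arrays and 0.97 among NN arrays. These are descriptions over 8 points that share each array's RNA and scaling, and many other transcripts moved with them. On the slide, the high arrays NB 2 and NB 8 lay in row 1 and NB 3 and NB 5 in row 2. NN 1 and NN 4 lay in columns 1 and 2, and NN 6 and NN 7 in columns 3 and 4. Rows did not divide the NN arrays in this way, nor columns the NB arrays, and the part of position was not tested. Of the named genes, Ahcy ranked 47th by its correlation with Gnmt, and Gnmt ranked 165th by its correlation with Ahcy. Cth ranked 533rd by its correlation with Ahcy and 675th by that with Gnmt.

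Other members moved with different partners. Bhmt and Cbs correlated at r = 0.82, Mat1a and Cbs at 0.72, and Mat1a and Nnmt at 0.72. The Mat1a relations were uneven between genotypes, at 0.94 with Cbs and 0.98 with Nnmt among NB arrays, against −0.25 and 0.30 among NN arrays. Pemt and Cth had the most negative value, −0.69, which also differed between genotypes, at 0.38 among NB arrays and −0.98 among NN arrays. Many other named genes correlated as closely: Cbs ranked 353rd by its correlation with Bhmt. By correlation with Mat1a, Cbs ranked 553rd and Nnmt 568th. Of the 36 pairs of members, 24 were above 0, 6 were at least 0.70, and the median was 0.31. The same shares over all pairs of genes were not computed.

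Gnmt and Ahcy, the pair with the highest correlation, are shown with the 250 bases before their transcription start sites, from RefSeq on build GRCm38.p6, for chr17:46729166-46729415 and chr2:155074498-155074747, both on the minus strand and written 5′ to 3′. Capitals mark each match to short motifs searched on both strands. These were the letters CCAAT (the CCAAT box), the letters TATAAA of the TATA box, the letters GGGCGG of the GC box, the letters CACGTG of an E-box and the letters AGGTCA, a core of nuclear receptor sites.
Gnmt: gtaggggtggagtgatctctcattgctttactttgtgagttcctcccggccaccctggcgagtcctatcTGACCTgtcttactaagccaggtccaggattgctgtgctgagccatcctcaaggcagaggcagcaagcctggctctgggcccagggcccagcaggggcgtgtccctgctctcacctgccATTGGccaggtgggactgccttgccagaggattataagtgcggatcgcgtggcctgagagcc
Ahcy: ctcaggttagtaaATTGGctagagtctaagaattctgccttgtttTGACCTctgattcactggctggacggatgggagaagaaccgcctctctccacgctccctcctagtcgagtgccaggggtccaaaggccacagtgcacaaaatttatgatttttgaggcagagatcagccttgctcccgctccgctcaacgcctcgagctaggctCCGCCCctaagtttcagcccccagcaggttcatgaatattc
Both windows hold AGGTCA read from the other strand, at −181 in Gnmt and −205 in Ahcy, and CCAAT likewise, at −62 and −237. Ahcy also holds a GC box at −41, and no match overlaps another.

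The table held 9 windows for 6 of the 9 members, since some genes have several start sites, and none for Mat1a, Cth or Nnmt. CCAAT occurred in 5 of the 9 windows (1 each of Ahcy, Bhmt, Cbs, Gnmt and Pemt) and in 33.8% of all 32851 windows of the same length. AGGTCA occurred in 3 of the 9 (Ahcy, Bhmt and Gnmt) and in 14.0% of all windows, and the GC box in 3 of the 9 (Ahcy, Cbs and Chdh) and in 32.7%. The E-box occurred in 1 of the 9, that of Cbs, against 6.00% of all windows, and TATAAA in none, against 12.4%. Bhmt, which also holds both AGGTCA and CCAAT, correlated at r = −0.14 with Gnmt and −0.37 with Ahcy. The motifs are letters in a sequence window, and binding was not measured.

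The transcripts whose deviations followed each member most closely over the 8 arrays were taken as the 3 with the highest r among 23632 named genes. For Gnmt these were Trim63 (r = 0.983), Lipc (0.970) and Dpyd (0.968), and for Mat1a they were Mir679 (0.986), Rhoa (0.971) and Srebf1 (0.967). Lipc encodes hepatic lipase, Dpyd the enzyme that starts pyrimidine breakdown, and Srebf1 a transcription factor of fatty acid synthesis. Ahcy was followed by Pxmp2 (0.984), Ctsg (0.981) and Gm4737 (0.981), the last being the gene whose probe shares bases with the Ahcy probe.

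Bhmt was closest to Prrc2c (0.979), Inppl1 (0.975) and Dusp2 (0.967), and Chdh, among the genes given here, to P2rx4 (0.985) and Slc20a2 (0.983). Cth was closest to Kazald1 (0.992), Zxdc (0.991) and Aspa (0.989), and Cbs to Kcne3 (0.983), Pik3c2a (0.983) and Nudt3 (0.979). Pemt was followed by Gm29871 (0.989), Plod3 (0.980) and Ankub1 (0.980), and Nnmt by Rnf14 (0.986), Gm19619 (0.983) and Stau1 (0.980). With so many genes and 8 arrays, correlations of this size are the extreme of a large set and are given only as a description.

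The genes around the members were described through 8 lists with 101 genes, of which 99 were tested. Amd1 had no probe paired with it, and Slc7a11 did not pass the filter on dim probes. None of the 99 passed the test in either direction, 34 had a fold change above 0 and 65 below 0 (65.7%, against 54.1% of all features), with a median of −0.04. At an unadjusted p under 0.05, 1 of 99 passed in limma, against 1.69% of all features. The genotypes separated completely in none of the 99, against 1.16% of all features.

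**Figure D4:**
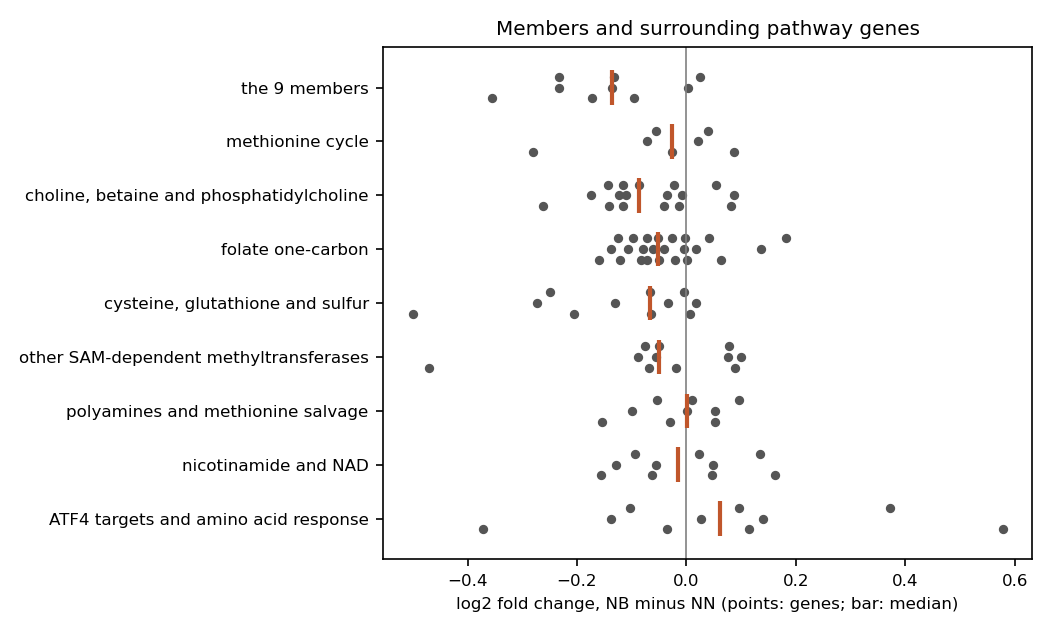
Log2 fold change, NB minus NN (horizontal axis), of the 9 members and of the genes in 8 surrounding lists, each gene a point and each list's median a bar. Points lie on both sides of 0 in every list, and list medians run from −0.14 for the members to 0.06 for the amino acid response genes.

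In the rest of the methionine cycle, 3 of 7 genes were above 0 and 4 below, with a median of −0.03. Mat2a, the gene for the SAM-making subunit of most tissues other than liver, showed 0.09 (SE 0.109) as its log2 fold change. Ahcyl1, a relative of Ahcy, had −0.07 (SE 0.0733). Mtr, the folate-dependent methionine synthase, was chosen after its values were seen: it read −1.10, 0.26, 0.44 and 0.40 on the NB arrays, against 0.11, 0.15, 0.54 and 0.33 on the NN arrays. Only NB 2 was low, and the genotypes otherwise overlapped (log2 fold change −0.28, SE 0.322).

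Choline, betaine and phosphatidylcholine genes numbered 17, with 3 above 0, 14 below and a median of −0.09. Slc44a2, a choline transporter, had a log2 fold change of 0.08 (SE 0.0860). Aldh7a1, which oxidises betaine aldehyde to betaine and lies on chromosome 18, had −0.26 (SE 0.180). It read 6.40, 5.69, 5.88 and 5.81 on the NB arrays, against 6.51, 6.33, 6.02 and 5.97 on the NN arrays, and NB 2 lay among the NN values while the other NB arrays lay below them.

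Of 24 genes of folate one-carbon metabolism, 6 were above 0 and 18 below, with a median of −0.05. Aldh1l1, the cytosolic formyltetrahydrofolate dehydrogenase of liver, had a log2 fold change of −0.14 (SE 0.0773), with 6.83, 6.74, 6.81 and 6.92 on the NB arrays against 7.05, 7.02, 6.90 and 6.88 on the NN arrays. NB 8 was the 1 NB array above the lowest NN array. Its mitochondrial relative Aldh1l2 had 0.18 (SE 0.140).

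Cysteine, glutathione and sulfur genes numbered 11, with 2 above 0, 9 below and a median of −0.07. Ethe1, a mitochondrial enzyme of sulfide oxidation, was the 1 gene of the lists with an unadjusted p under 0.05 (0.0345, adjusted p = 1, limma). It read 2.98, 2.84, 2.93 and 2.98 on the NB arrays, against 3.33, 3.33, 2.98 and 3.09 on the NN arrays. NN 1 and NN 4 stood apart as high, and NN 6 lay at the level of NB 2 and NB 8 (log2 fold change −0.25, SE 0.0998). Gclm, the regulatory subunit of the ligase that takes the first step of glutathione synthesis, had 0.02 (SE 0.103).

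Got1, the cytosolic aspartate aminotransferase, had the most negative fold change of all lists and was likewise chosen after its values were seen. It read 4.90, 3.64, 4.96 and 5.50 on the NB arrays, against 5.39, 5.26, 5.34 and 5.01 on the NN arrays. NB 3 was far below all others, and NB 8 was the highest of the 8 (log2 fold change −0.50, SE 0.339).

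The 11 other SAM-dependent methyltransferases had 4 genes above 0 and 7 below, with a median of −0.05. Inmt, which methylates indole amines, read 4.78, 3.24, 3.88 and 4.39 on the NB arrays, against 5.08, 4.78, 4.16 and 4.15 on the NN arrays. NN 1 was the highest and NB 3 the lowest, with NB 2 and NB 8 among the NN values (log2 fold change −0.47, SE 0.343). Tpmt, which methylates thiopurines, had 0.08 (SE 0.0901).

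Polyamine and methionine salvage genes (9 tested of 10) had a median of 0.0006, with 5 above 0 and 4 below. Mri1, an isomerase of methionine salvage, showed 0.10 (SE 0.135) as its log2 fold change, and Sms, spermine synthase, had −0.15 (SE 0.183). The 10 genes of nicotinamide and NAD metabolism were 5 above and 5 below 0, with a median of −0.02. Nmnat3, a mitochondrial enzyme of NAD synthesis, had 0.16 (SE 0.101), and Nadk, NAD kinase, had −0.13 (SE 0.0974).

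The targets of ATF4 and the amino acid response were the list with the highest median, 0.06, with 6 of 10 tested genes above 0. Phgdh, the first enzyme of serine synthesis, read −3.89, −2.16, −3.02 and −2.99 on the NB arrays, against −3.84, −3.92, −3.45 and −3.16 on the NN arrays. NB 3 was the highest array and NB 2 lay among the lowest, so the genotypes overlapped (log2 fold change 0.58, SE 0.335). Sesn2, a stress-induced inhibitor of growth signalling, had −0.37 (SE 0.222), from 3 NB and 4 NN arrays because its spot on NB 3 was marked as an outlier.

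Cell type markers moved with some of the members from array to array. Each marker list was scored as the mean deviation of its genes from their own means, and correlations were taken over deviations from the genotype means on the 8 arrays. Every list was correlated with every member, and the correlations given here and below are mostly the largest found. With 8 arrays they are the extremes of a large set and are given only as a description. The Kupffer cell score (6 of 6 markers measured, such as Clec4f and Vsig4) was −0.22, 0.23, 0.27 and 0.14 on the NB arrays, against −0.37, −0.38, 0.15 and 0.17 on the NN arrays. The marker Marco ran from −0.67 (NN 1) to 1.79 (NB 5), the widest range in the list, and so weighs most in this score. Ahcy was highest on NN 1, NN 4 and NB 2, the 3 arrays with a negative score.

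The Kupffer cell score correlated at r = −0.93 with Ahcy, −0.82 with Gnmt and −0.83 with Cth. The summed level of its markers ranged from 4.95 to 5.44 on NB arrays and from 4.86 to 5.28 on NN arrays, 5 of 6 fold changes were above 0 with a median of 0.20, and none passed the test. The hepatocyte score had a narrow range, −0.07 to 0.07 on NB arrays and −0.08 to 0.08 on NN arrays, and correlated at −0.96 with both Gnmt and Ahcy and −0.81 with Cth. The part of these scores in the values of the members was not tested.

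The periportal hepatocyte score (8 of 8 markers, such as Cps1, Ass1 and Hal) was −0.02, −0.47, −0.09 and 0.09 on the NB arrays, against 0.18, 0.26, 0.05 and 0.00 on the NN arrays. NB 3, the lowest array for Gnmt, had the lowest score, and NN 4, the highest for Gnmt, had the highest. Among the periportal markers, Sds ran from 3.10 (NB 3) to 4.93 (NB 8), the widest range in the list, and so weighs most in this score. The score correlated at 0.90 with Gnmt and 0.73 with both Mat1a and Ahcy. All 8 fold changes were below 0 with a median of −0.30 and none passed the test, and the summed level ranged from 9.01 to 9.30 on NB arrays and from 9.27 to 9.51 on NN arrays. Of these markers only Ass1 (0.0374), Cps1 (0.0436) and Asl (0.0455) had an unadjusted p under 0.05 in limma, against 1.69% of all features. Of the 9 pericentral markers, 6 were above 0 and the median was 0.03. The part of the zone markers in the Gnmt difference was not tested.

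**Figure D5:**
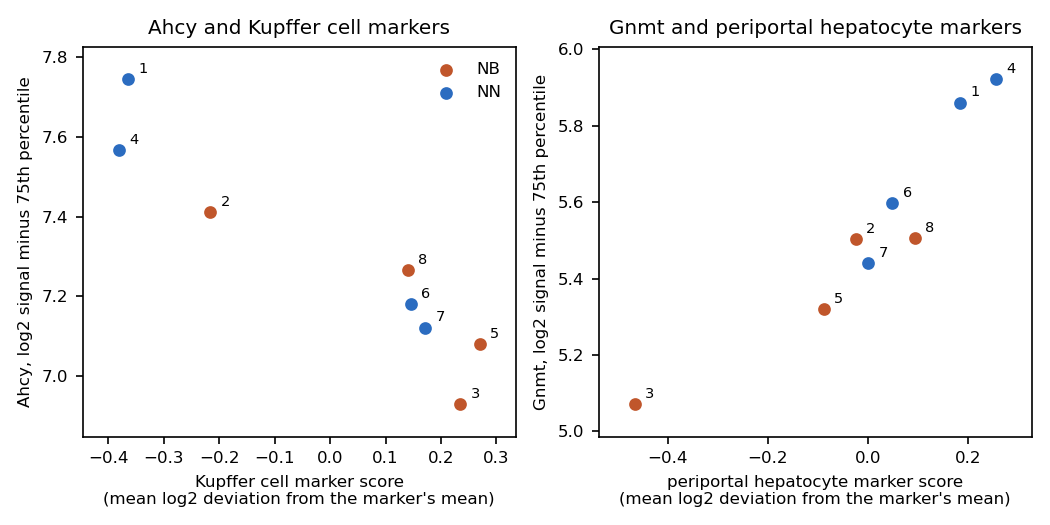
Left, log2 signal of Ahcy (vertical axis) against the Kupffer cell marker score of the array (horizontal axis). Right, the same for Gnmt against the periportal hepatocyte marker score, with NB arrays in orange, NN arrays in blue and numbers naming the arrays. Ahcy is highest on the 3 arrays with a negative Kupffer cell score, and Gnmt is lowest on NB 3, which has the lowest periportal score.

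Markers of fat and pancreas, which can be taken along with liver, had summed levels that overlapped between the genotypes. Levels were summed on the linear scale, so each sum mostly follows its brightest marker. These were Fabp4 for fat (mean log2 signal 0.90 in NB and 0.95 in NN) and Cela1 for pancreas (3.82 and 3.68). Of the adipocyte markers 5 of 6 were measured, with Adipoq, the defining adipokine gene, not well above background on enough arrays to be kept. Their summed level was 0.90 to 1.62 on NB arrays and 0.98 to 1.48 on NN arrays. Of 4 pancreatic acinar markers, Prss2 was not kept, and the summed level of the other 3 was 3.62 to 4.12 on NB arrays and 3.64 to 3.85 on NN arrays. The adipocyte score correlated at r = 0.77 with Mat1a and 0.73 with Bhmt, and the acinar score at −0.97 with Pemt and 0.75 with Cth. In the adipocyte score the dim marker Cfd weighs most, since it ran from −6.85 (NB 2) to −2.73 (NB 5), the widest range in that list. The pericentral score correlated at −0.79 with Pemt, and the lymphocyte score at −0.76 with Bhmt and −0.72 with Cbs. None of the markers of stellate cells, sinusoidal endothelium, cholangiocytes or lymphocytes passed the test. Of these, only the stellate marker Pdgfrb, on chromosome 18, had an unadjusted p under 0.05 (0.014, limma), against 1.69% of all features. Its log2 fold change was 0.36 (SE 0.118), and the genotypes overlapped. The part of all the marker lists in the members' values was not tested.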

How the data were processed

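Spot intensities in the deposited scanner files come from Agilent Feature Extraction 11.5.1.1 per the file headers (9.1 according to the submitters' processing notes). The software had subtracted background from this intensity, per the file headers, and arrays were not normalized against each other. The authors' deposited value table (59448 rows) holds linear intensities whose 8 columns have the same sorted values, and served as an alternative.

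Spots marked as outliers (248 to 621 per array) were treated as missing and spots of a probe averaged. Log2 signals were set relative to each array's 75th percentile. Of 60273 probes, 46848 stood well above background on 4 or more of the 8 arrays and were kept, and a gene was read from its brightest probe. Accessions matched without version to the RefSeq table of GRCm38.p6 named 31064 probes, and 29209 stayed under their accession. Features with fewer than 2 values in a genotype were dropped, leaving 42982.

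NB was compared with NN by a two-sided limma fit (version 3.58.1, R 4.3.3), adjusted by Benjamini-Hochberg over all features at a threshold of 0.05. All arrays lay on 1 slide with 1 scan date. The steps were tested on simulated data. Named pathway genes are, in each list, those with the smallest p in each direction, and Bhmt2, while Mtr, Got1 and Gm4737 were named after their values were seen. Of the genes most like each member, 1 is not reported here. The members and lists were chosen with earlier results of these data known. Alternatives covered background correction, scaling, filters, probe summary, variance model, array weights, slide position, threshold and each array left out.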

Additional observations from a re-analysis of the deposited data

Results flagged for a closer look

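Of 57 sets of 4 arrays examined, 3 held 1 array far from the other 3 by Dixon's test, or 5.26%. Chance gives about 5% for independent sets chosen without regard to their values. These sets share arrays, and those of Mtr, Got1 and Gm4737 were chosen after their values were seen, so the shares cannot be compared. The sets were the NB and the NN arrays of the members, of the pathway genes named by the rule (Sesn2 in NN alone) and of Mtr, Got1 and Gm4737. None of the 18 sets of the members was among the 3. Nmnat3, an enzyme of NAD synthesis, read −1.08 on NB 3, against −1.43 to −1.37 on the other NB arrays. Mtr, methionine synthase, read −1.10 on NB 2, against 0.26 to 0.44 on the other NB arrays. Bhmt2, the paralog of Bhmt, read 5.49 on NN 1, against 5.31 to 5.33 on the other NN arrays.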

How the results depend on the processing

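No member and no pathway gene was called under any alternative, and every member's adjusted p stayed at 1 in limma; the count of members with an unadjusted p under 0.05 lay between 0 and 2. The 3 features called became 5 when kept probes of a gene were averaged, and numbered between 2 and 4 under the other alternatives. Gnmt stayed below 0 throughout, from −0.41 to −0.30 over the other settings and from −0.44 to −0.26 with an array left out, but had no unadjusted p under 0.05 with quantile normalization, the authors' value table or slide column as a block, nor without NB 3, NB 5, NN 1 or NN 4. Chdh turned to −0.009 with normexp (offset 50) and −0.0021 with array weights, and ranged from −0.0544 to 0.0667 with an array left out. Pemt ranged from −0.0021 (without NN 4) to 0.0545 and Nnmt from −0.3947 to 0.0388 (without NB 3; 0.0381 without NN 1) in the same way. Leaving out 1 array also took Mat1a from −0.3359 (without NB 8) to −0.1189 (without NB 3), Ahcy from −0.3264 (without NN 7) to −0.1186 (without NN 1), Cth from −0.2387 (without NN 6) to −0.0290 (without NN 1) and Cbs from −0.1534 (without NB 8) to −0.0499 (without NB 3), all still below 0. Features with no overlap between NB and NN numbered 935 to 1846 with an array left out, against 497, since fewer arrays then have to separate. Among the members, Bhmt then separated fully without NB 5 and without NN 1, and Gnmt without NN 7. No paired analysis was possible because the labels' numbers run through both genotypes and none is shared; each slide column held 1 array of either genotype, and as a block it left 0 members called and Gnmt at −0.35 (SE 0.153). With 4 arrays a genotype, intervals of the members allow changes up to those given for each gene, and transcripts of Ahcy and Gm4737 are not separated at the shared bases.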
